A study of Mus musculus with 8 samples.

Results

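Lysosome and proton pump genes were examined in whole knee joints of mice, as a set of 39 named genes among the 20681 genes of the table. The set was defined by gene name, but it was chosen with earlier results of these data known. It holds the common subunits of the vacuolar proton pump (V-ATPase), its accessory proteins, the lysosomal chloride exchanger and lysosomal membrane proteins. It also holds lysosomal hydrolases and their activators, and the transcription factors Tfeb and Tfe3. All 39 had a row, and all passed the filter on low values, which asks for 10 normalised reads or more in no fewer than 4 of the 8. The lowest value of any of them in any library was 55.9 normalised reads.

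The libraries were made from poly-A RNA of 8 joints, with 4 joints in a control group and 4 in a group labelled as knockout of Loxl2, which encodes an enzyme that crosslinks collagen. The series gives the origin of all 8 samples as Acan-Cre;Loxl2 fl/fl mice, so both groups carry the floxed alleles and a Cre driven by Acan, which cartilage cells express, whereas the control library names read LOXL2wt and the others LOXL2ko. The control joints are described as vehicle-treated and the treatment of the others is not given in the sources used here, nor are age and sex. Every library name also has DMM in it, the common abbreviation of surgical destabilisation of the medial meniscus. A Cre driven by Acan acts in cartilage, while a whole knee also holds bone, marrow, synovium, fat, tendon and muscle.

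The normalised read count of Loxl2 (chromosome 14, 69609068 to 69695834) was 282, 349, 1135 and 311 in the control libraries and 893, 1468, 960.3 and 1518 in those labelled knockout, so the targeted gene went against its label, and the groups keep the names that the labels give them. Control replicate 3 lay among the libraries labelled knockout, and the log2 difference was 1.44 (SE 0.40, limma adjusted p = 0.0294). That call was lost in 8 of 19 alternatives, among them edgeR (adjusted p = 0.0669), DESeq2 (0.0659), the replicate block (0.0513) and 5 fits without 1 library (up to 0.0849), with a log2 difference above 0 in each. Values are given in the order of replicates 1 to 4, and gene positions are those of GENCODE M21 on GRCm38 (mm10), start to end of the gene. The libraries held 13991000 to 17411617 reads assigned to genes. A list of 15 skeletal muscle markers took 14.6 ± 0.217% (SD, n = 4) of the summed values in the control libraries. In those labelled knockout the same list took 10.1 ± 1.2%. The 9 chondrocyte markers in the table took 0.0444 ± 0.0212% and 0.0791 ± 0.0174%, with Matn3 at 0 in control replicate 3. The most abundant of them, Comp, had 4358 ± 1862 normalised reads (SD, n = 4) in control libraries and 7942 ± 2462 in those labelled knockout. Next in abundance, Col11a2 had 1429 ± 1664 and 1195 ± 321, and Col2a1 had 1045 ± 1143 and 1165 ± 372, so the summed share mostly followed Comp. In control replicate 1 the summed osteoclast markers stood at 16776, against 4142 to 4839 in the other control libraries. In bulk tissue, fewer cells of a type and less RNA per cell cannot be told apart. The labels do not tie each joint to an animal of its own, so the p-values measure the spread between these samples.

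Lysosomes break down proteins, sugars, lipids and worn organelles inside an acidic compartment. The acid is made by the V-ATPase, in which the peripheral V1 sector splits ATP and the membrane-bound V0 sector carries protons, while a chloride exchanger balances their charge. In a joint the same pump has a second place of work, the ruffled border of the osteoclast, where a form built with the a3 subunit (Tcirg1) and the d2 subunit (Atp6v0d2) acidifies the bone surface. Macrophages are also rich in lysosomes. TFEB and TFE3 are transcription factors that switch on lysosomal genes through a short DNA element with the core CACGTG, and they are held in the cytoplasm by phosphorylation when the kinase mTORC1 is active.

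Sequence before the start of these genes was available from RefSeq (GRCm38.p6, the assembly of mm10) for 34 of the 39, and the other 5, Asah1, Atp6v1b2, Atp6v1c1, Atp6v1h and Npc1, were not matched. In the 250 bases before the start, TCACGTG was searched on both strands, so that its reverse CACGTGA also counts. Every match contains CACGTG. It was present for 9 of the 34 (26.5%), against 3.58% of the 27025 genes with such a window. CACGTG alone was also present in 9 of the 34 (26.5%), against 6.86% of all. The stretches below are those of the 5 members that were called higher in the libraries labelled knockout and hold the longer motif, and of Lamp1, which holds 4 copies and was not called and was added after its values were seen. They lie before the start and outside annotated exons, except that of Naglu, where only the site itself is given because GENCODE places it in an exon of the gene. The stretches of Lgmn and Atp6v1a lie inside the gene as GENCODE bounds it, which starts before the RefSeq start used here. Capitals mark TCACGTG or its reverse.
Naglu (chr11:101070009-101070037, plus strand): caaccttcaggTCACGTGgcccgaggtcg
Lgmn (chr12:102439093-102439242, minus strand): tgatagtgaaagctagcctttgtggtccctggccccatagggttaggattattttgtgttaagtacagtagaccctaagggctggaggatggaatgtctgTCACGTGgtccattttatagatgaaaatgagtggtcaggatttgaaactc
Atp6v1a (chr16:44139306-44139409, minus strand): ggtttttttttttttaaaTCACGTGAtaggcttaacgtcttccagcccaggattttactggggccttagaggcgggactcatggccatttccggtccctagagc
Glb1 (chr9:114400928-114401075, plus strand): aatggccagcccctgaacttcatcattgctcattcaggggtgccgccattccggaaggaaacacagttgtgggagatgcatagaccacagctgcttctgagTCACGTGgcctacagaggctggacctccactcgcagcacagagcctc
Atp6v0b (chr4:117887334-117887479, minus strand): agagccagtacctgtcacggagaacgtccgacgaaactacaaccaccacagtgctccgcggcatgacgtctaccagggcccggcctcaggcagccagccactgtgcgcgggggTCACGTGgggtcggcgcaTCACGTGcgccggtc
Lamp1 (chr8:13159011-13159160, plus strand): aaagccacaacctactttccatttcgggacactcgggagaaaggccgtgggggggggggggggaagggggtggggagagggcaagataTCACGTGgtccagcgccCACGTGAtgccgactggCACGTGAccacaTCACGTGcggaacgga
The first base of the match lies 74 bases before the start in Naglu, 50 in Lgmn, 132 in Atp6v1a, 49 in Glb1, 37 and 19 in Atp6v0b, and 62, 45, 28 and 16 in Lamp1. The window of Lgmn belongs to the more internal of its RefSeq starts. In Atp6v1a the match reads the same on both strands. A match describes the letters only. Of the 9 members that hold it, 5 were called higher and 4 (Lamp1, Mcoln1, Clcn7 and Gla) were not called. Of the 25 without it, 12 were called higher, Atp6v0a1 was called lower and 12 were not called.

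The comparison between the groups asked which of these genes differ between the control joints and those labelled knockout. Of the 39 members, 18 (46.2%) were called higher in the libraries labelled knockout by limma at an adjusted p under 0.05, and 1 (2.56%), Atp6v0a1, was called lower. Over all 14949 genes tested, 11.6% were called higher and 11.6% lower. Since the members were chosen with earlier results of these data known, these shares describe the set and do not test it. The median log2 difference of the members was 0.53, against 0.00 over all genes tested, and 30 of the 39 differences were above 0. The fold differences of those called higher ran from 1.36 to 2.75. The groups did not overlap, with the libraries labelled knockout higher, for 15 members (11.7% of all genes), and with them lower for 2, Lamp1 and Scarb2 (13.4% of all genes). Scaled instead by the library total of the genes left after removing muscle, blood and the 50 highest genes, an alternative chosen after seeing the data, 24 members were called higher and 0 lower. That scaling moved the median of all genes by 0.15 and the share of higher calls among all called genes from 50% to 77.6%.

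**Figure D1:**
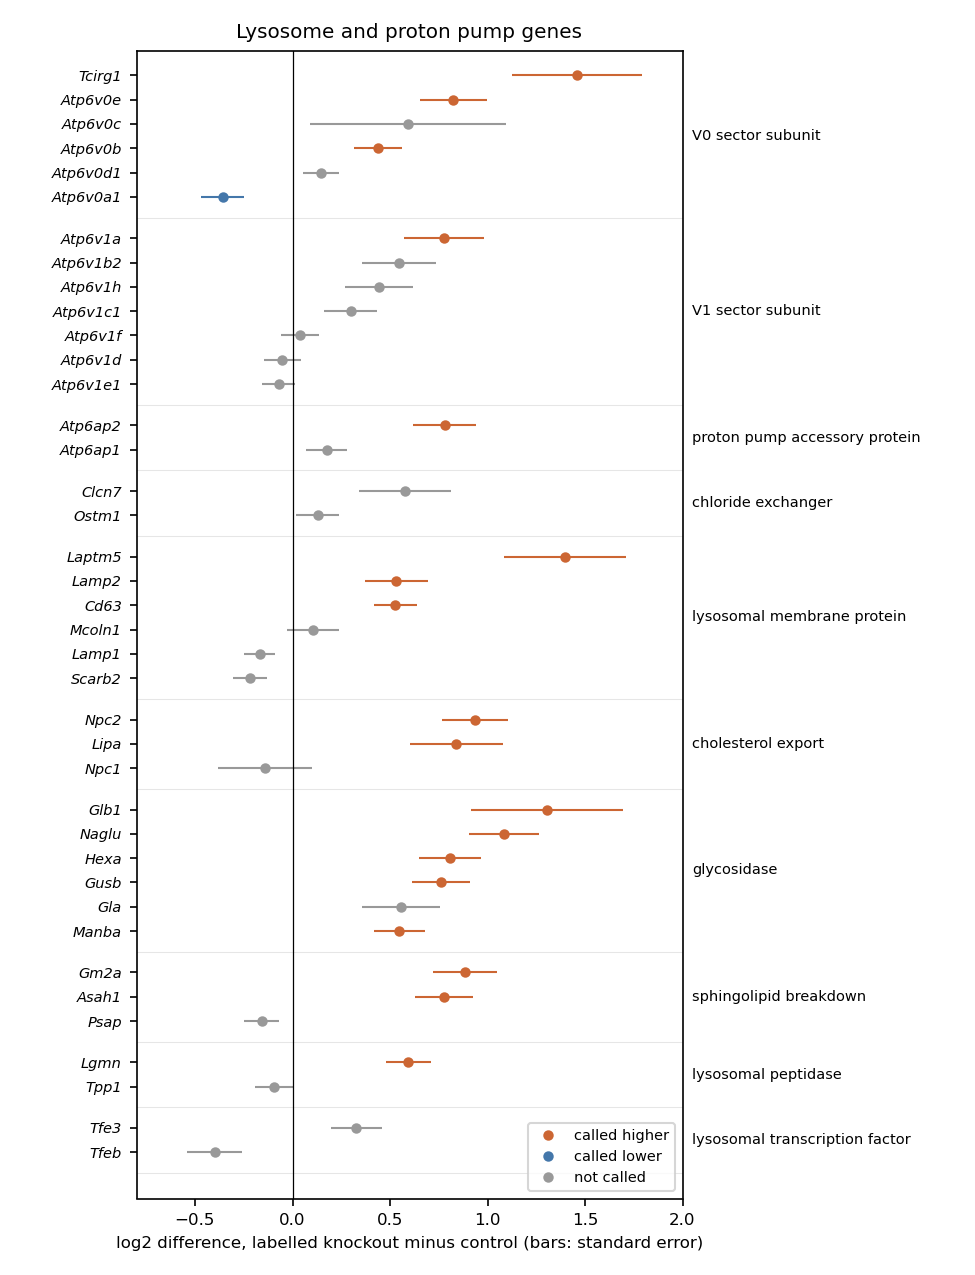
Horizontal axis, log2 difference between the groups (labelled knockout minus control) for each of the 39 members, ordered by role, with the standard error of the limma fit. The 18 members called higher are in orange, Atp6v0a1, the member called lower, is in blue, and the 20 not called are in grey.

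Markers of cells rich in lysosomes differed between the same libraries. Of 11 osteoclast markers Calcr (log2 difference 1.46), Nfatc1 (0.12) and Car2 (-0.82) were not called. The other 8 were called higher, and the median log2 difference of the 11 was 2.53. The count fell to 4 with edgeR and with DESeq2, to 5 without control replicate 3 (with Car2 called lower), to 3 without control replicate 4, and to 2 without control replicate 2 or knockout replicate 1 or 4. Their summed level was 4142 to 16776 in the control libraries and 12295 to 42283 in those labelled knockout, with control replicate 1 above knockout replicate 2. Ctsk (log2 difference 2.53, SE 0.53, limma adjusted p = 0.0114), Acp5 (log2 difference 2.92, SE 0.77, limma adjusted p = 0.0239) and Mmp9 (log2 difference 2.82, SE 0.79, limma adjusted p = 0.0302) were the most abundant of them. The calls of Acp5 and Mmp9 were lost with edgeR (adjusted p = 0.0979 and 0.109) and with DESeq2 (0.0748 and 0.104). Of 12 macrophage markers 10 were called higher, with a median log2 difference of 1.26 (6 called without knockout replicate 4) and a summed level of 3518 to 7598 against 11196 to 16026, and Lyz2 (log2 difference 1.25, SE 0.35, limma adjusted p = 0.031), Csf1r (log2 difference 1.58, SE 0.43, limma adjusted p = 0.0262) and C1qa (log2 difference 1.18, SE 0.21, limma adjusted p = 0.00707) were the most abundant. Without knockout replicate 4 the calls of Lyz2 (limma adjusted p = 0.0909) and Csf1r (0.0757) were lost. Fibroblast markers, 8 of 10 called higher, summed to 50436 to 143262 against 184222 to 291779, led by Col1a1, Col1a2 and Col3a1. Without knockout replicate 4, which ended the calls of these 3 leaders, 4 were called, and 5 without control replicate 2 or 4 or without knockout replicate 1. No osteoclast, macrophage or fibroblast marker was at 0 in any library. Neutrophil markers, led by S100a9, S100a8 and Ngp and with Cxcr2 at 0 in at least 1 library, summed to 1423 to 5732 against 1121 to 2751. None of the 9 tested was called, and all 9 log2 differences lay below 0, with a median of -0.63. Of 9 chondrocyte markers tested 1, Hapln1, was called higher (0 with the replicate block or without knockout replicate 4, 2 in 7 settings and 3 without control replicate 1), with Comp, Col11a2 and Col2a1 the most abundant and not called. The osteoclast list shares Acp5 and Atp6v0d2, and the macrophage list Cd68, with the other lists of lysosomal genes. The part of these cell types in the values of the members was not tested.

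Hydrolases and their activators held the most calls. Of 12 such members, 9 were called higher and 3 (Gla, Psap and Tpp1) were not called, with a median log2 difference of 0.77. Naglu, which removes N-acetylglucosamine from heparan sulphate, chromosome 11, 101070012 to 101077672, had normalised read counts of 284, 208, 231 and 171 in the control libraries and 521, 375, 426 and 574 in those labelled knockout. All 4 libraries labelled knockout lay above all 4 control libraries, and the log2 difference was 1.09 (SE 0.18, limma adjusted p = 0.00561), the smallest p of the set. Hexa, the alpha chain of beta-hexosaminidase, chromosome 9, 59539540 to 59565109, had 1824, 1189, 1372 and 1285 in the control libraries and 2824, 2018, 2189 and 2881 in those labelled knockout. Replicates 1 and 4 of the libraries labelled knockout were the highest, the groups did not overlap, and the log2 difference was 0.81 (SE 0.16, limma adjusted p = 0.00928). Gusb, beta-glucuronidase, chromosome 5, 129989011 to 130003049, had 419.7, 336, 411 and 337 in the control libraries and 671, 548, 542 and 819 in those labelled knockout. The groups were separate, and the log2 difference was 0.76 (SE 0.15, limma adjusted p = 0.00905). Manba, beta-mannosidase, chromosome 3, 135485611 to 135571404, had 209.8, 196, 242 and 225 in the control libraries and 362, 305, 261 and 356 in those labelled knockout. Its lowest library labelled knockout lay just above its highest control library, and the log2 difference was 0.55 (SE 0.13, limma adjusted p = 0.0179). The call of Manba was lost without control replicate 2 (limma adjusted p = 0.0524), without knockout replicate 4 (0.0568) and with a replicate block (0.0522), in a range of 0.00231 to 0.0568 over the 19 alternatives.

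Of the other glycosidases, Glb1, beta-galactosidase, had 148 ± 97.5 (SD, n = 4) in control libraries and 324 ± 77.4 in those labelled knockout, and the log2 difference was 1.30 (SE 0.39, limma adjusted p = 0.0376). Control replicate 1, at 287, lay above replicate 2 of the libraries labelled knockout, at 228, so the groups overlapped. Its call was lost in 8 of 19 alternatives, among them edgeR (adjusted p = 0.0645), and Tmppe overlaps it on the same strand. Gla, alpha-galactosidase A, had 66.9 ± 10.8 (SD, n = 4) in control libraries and 99.5 ± 21.2 in those labelled knockout, the lowest level per length of exon among the members. It was not called (log2 difference 0.55, SE 0.20, limma adjusted p = 0.0706), although its groups did not overlap.

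Among the genes of sphingolipid breakdown, Gm2a, the activator that presents GM2 ganglioside to hexosaminidase, chromosome 11, 55098115 to 55113029, had 462, 317, 399 and 336 in the control libraries and 899.6, 548, 707 and 659 in those labelled knockout. Replicate 1 of the libraries labelled knockout was the highest, the groups were separate, and the log2 difference was 0.89 (SE 0.17, limma adjusted p = 0.00795). Asah1, acid ceramidase, chromosome 8, 41340197 to 41374773, had 379.6, 343, 555 and 401 in the control libraries and 739, 718, 613 and 770.2 in those labelled knockout. Control replicate 3 stood above the other control libraries but below every library labelled knockout, and the log2 difference was 0.78 (SE 0.15, limma adjusted p = 0.00839). Psap, which encodes the precursor of the saposins, was the most abundant member per length of exon. Its normalised reads per kb were 5237 ± 195 (SD, n = 4) in control libraries and 4696 ± 278 in those labelled knockout, and it was not called (log2 difference -0.16, SE 0.09, limma adjusted p = 0.225).

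Of the peptidases, Lgmn, an asparagine-specific endopeptidase that also processes cathepsins, chromosome 12, 102394084 to 102439813, had 828, 773, 1023 and 968 in the control libraries and 1182, 1345, 1352 and 1537 in those labelled knockout. The groups were separate, and the log2 difference was 0.59 (SE 0.11, limma adjusted p = 0.0089). Tpp1, tripeptidyl peptidase 1, had 1262 ± 77.3 (SD, n = 4) in control libraries and 1185 ± 133 in those labelled knockout and was not called (-0.10, SE 0.10, limma adjusted p = 0.509).

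Of 3 genes that handle cholesterol in the lysosome, 2 were called higher. Lipa is also counted among the 12 hydrolases and activators above. Npc2, the soluble protein that hands cholesterol to NPC1, chromosome 12, 84754562 to 84773152, had 1496, 1010.4, 1548 and 1018 in the control libraries and 2806, 2069.7, 2087 and 2642 in those labelled knockout. Control replicates 1 and 3 were the higher control libraries, the groups were separate, and the log2 difference was 0.94 (SE 0.17, limma adjusted p = 0.00746). Lipa, lysosomal acid lipase, had 193 ± 55.7 (SD, n = 4) in control libraries and 348 ± 105 in those labelled knockout, and the log2 difference was 0.84 (SE 0.24, limma adjusted p = 0.0312). Its groups overlapped, since control replicate 3, at 273, lay above knockout replicate 1, at 261, and its call was lost in 7 of 19 alternatives, among them the replicate block (limma adjusted p = 0.0616). Npc1, the membrane transporter, was not called, and its control libraries split into 594 and 573 in replicates 1 and 2 and 1132 and 1192 in replicates 3 and 4.

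**Figure D2:**
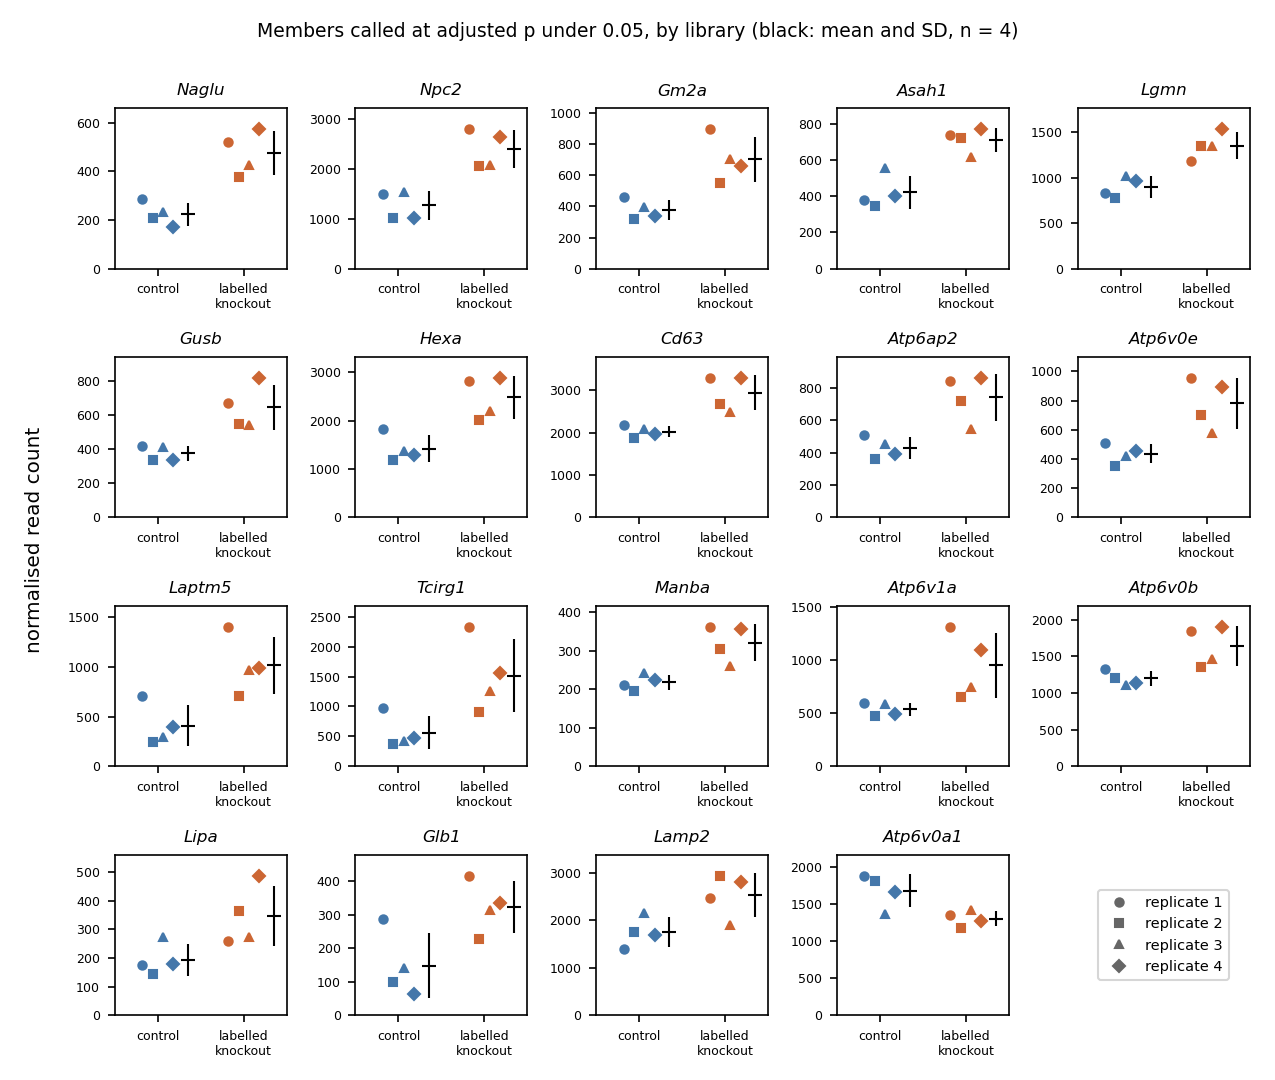
Normalised read count (vertical axes, from 0) of each member called by limma, ordered by p, with 1 symbol per library by replicate number and the mean and SD of each group in black. In 14 of the 18 members called higher all libraries labelled knockout lie above all control libraries, while in Tcirg1, Lipa, Glb1 and Lamp2, and in Atp6v0a1, the groups overlap.

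Of the 13 pump subunits, 4 were called higher (30.8%), 1 lower (7.69%) and 8 were not called, with a median log2 difference of 0.44. Of these calls, 4 lay in the membrane sector. Tcirg1, the a3 subunit of the V0 sector and the form used by osteoclasts, chromosome 19, 3896050 to 3907133, had 974, 378, 422 and 469 in the control libraries and 2334, 910.0, 1260.4 and 1559 in those labelled knockout. Control replicate 1 lay above knockout replicate 2, so the groups overlapped in that pair alone, and the log2 difference was 1.46 (SE 0.33, limma adjusted p = 0.015), the largest difference of the set. Without control replicate 1 the log2 difference was 1.76 (limma adjusted p = 0.00811). The a1 subunit of the same position, Atp6v0a1, chromosome 11, 101009452 to 101063719, had 1889.5, 1811, 1374 and 1668 in the control libraries and 1357, 1179, 1421 and 1277 in those labelled knockout. It was called lower, and the log2 difference was -0.36 (SE 0.11, limma adjusted p = 0.0434). Control replicate 3 fell within the range of the libraries labelled knockout. That call was lost in 10 of 19 alternatives (adjusted p 0.0123 to 0.198 over limma, edgeR and DESeq2 settings), among them quantile normalisation (0.198), the library-total scaling (0.184) and the replicate block (0.0966).

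Atp6v0e, a small V0 subunit, chromosome 17, 26663231 to 26699647, had 508, 351, 423 and 458 in the control libraries and 955, 699.6, 575 and 891 in those labelled knockout. The groups were separate, and the log2 difference was 0.83 (SE 0.17, limma adjusted p = 0.011). Atp6v0b, a proteolipid of the rotor ring, chromosome 4, 117884326 to 117887333, had 1332, 1204, 1114 and 1139 in the control libraries and 1843, 1348, 1458 and 1903 in those labelled knockout. Replicate 2 of the libraries labelled knockout was nearly level with control replicate 1, and the log2 difference was 0.44 (SE 0.12, limma adjusted p = 0.0301). The call of Atp6v0b was lost in 5 of the alternatives, on leaving out any 1 of control replicates 2, 3 and 4 and knockout replicates 1 and 4 (limma adjusted p 0.0607 to 0.0841), and Gm12841 lies opposite it. Atp6v0c, the main proteolipid of the ring, was not called (log2 difference 0.59, SE 0.50, limma adjusted p = 0.416). Control replicate 4 had 94.2 reads of it against 459.9 to 560.3 in the other control libraries, and without that library the difference was 0.00. The annotation names 2 pseudogene copies of Atp6v0c, with which reads can be shared. Atp6v0d1, which joins the sectors, was not called either (0.15, SE 0.09, limma adjusted p = 0.267).

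In the V1 sector, 1 of 7 subunits (14.3%) was called higher, against 11.6% of all genes tested. Atp6v1a, the catalytic subunit, chromosome 16, 44085402 to 44139705, had 593, 476, 585 and 491 in the control libraries and 1314, 655, 746 and 1094 in those labelled knockout. Replicates 1 and 4 of the libraries labelled knockout were highest, the groups were separate, and the log2 difference was 0.78 (SE 0.20, limma adjusted p = 0.0242). The call was lost without control replicate 2 (0.0679) or 4 (0.0606) or knockout replicate 4 (0.0735), in a range of limma, edgeR and DESeq2 adjusted p from 0.00147 to 0.0735. Atp6v1b2, its partner in the catalytic ring, was not called (0.55, SE 0.19, limma adjusted p = 0.0625), but was called in 5 alternatives, including the replicate block (0.0416). The stalk and regulatory subunits Atp6v1c1, Atp6v1d, Atp6v1e1, Atp6v1f and Atp6v1h were not called, with log2 differences from -0.07 (Atp6v1e1) to 0.45 (Atp6v1h).

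Per length of exon, in control libraries the 13 pump subunits ranged from 31.3 ± 4.70 normalised reads per kb for Atp6v1h to 717 ± 22.0 for Atp6v1f. On that scale Tcirg1 went from 122 ± 60.5 to 329 ± 132 and Atp6v0a1 from 257 ± 34.6 to 199.6 ± 16.0, so that the mean level of Tcirg1 lay below that of Atp6v0a1 in the control group and above it in the group labelled knockout. The spread of Tcirg1 in the latter group was wide, and its lowest library there lay close to the group mean of Atp6v0a1.

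**Figure D3:**
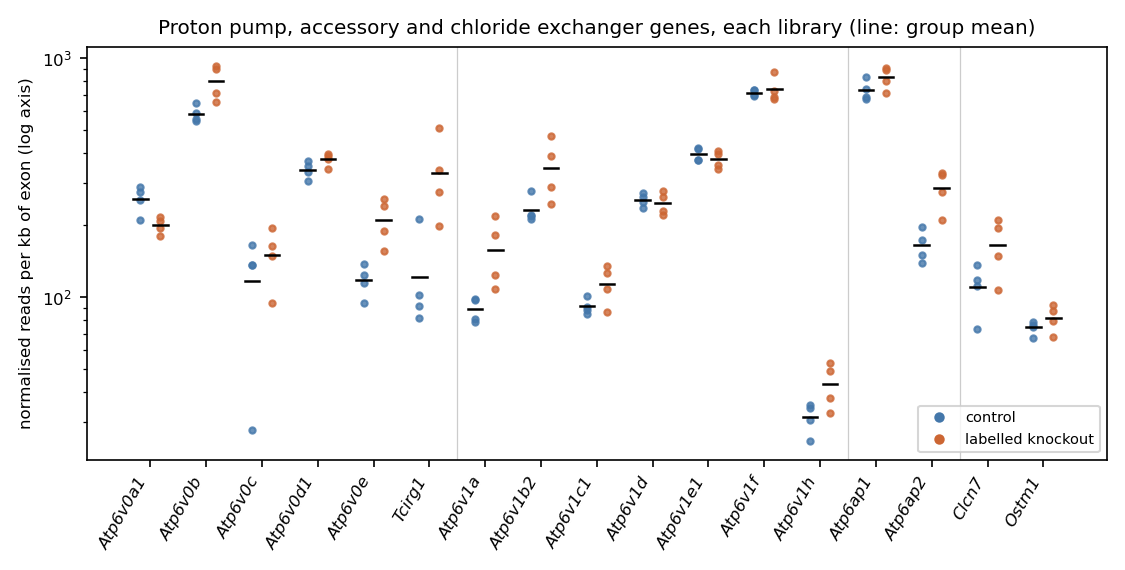
Normalised reads per kb of exon (log axis) of the pump subunits, accessory proteins and chloride exchanger genes in each library, with vertical lines between the V0, V1, accessory and exchanger genes and a black line at each group mean. Tcirg1 moves from 122 to 329 per kb between the group means, while the symbols of both groups overlap for Atp6v1d, Atp6v1e1 and Atp6v1f.

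The accessory proteins gave 1 call in 2. Atp6ap2, a membrane protein of the assembled pump also known as the prorenin receptor, chromosome X, 12587801 to 12617049, had 513, 363, 454 and 391 in the control libraries and 845, 722, 548 and 864 in those labelled knockout. The groups were separate, and the log2 difference was 0.78 (SE 0.16, limma adjusted p = 0.0109). Atp6ap1, its partner, was not called (0.18, SE 0.10, limma adjusted p = 0.243). Neither gene of the chloride exchanger was called. Clcn7, the exchanger itself, chromosome 17, 25133391 to 25162104, had 722, 586, 622 and 389 in the control libraries and 1107, 568, 785 and 1029.9 in those labelled knockout. The groups overlapped, with a log2 difference of 0.58 (SE 0.24, limma adjusted p = 0.101). It was called with DESeq2 (adjusted p = 0.0486) and without knockout replicate 2 (0.0408), out of 19 alternatives that ran from 0.0408 to 0.236. Ostm1, the subunit that stabilises it, chromosome 10, 42583822 to 42702459, had 542, 552, 569 and 486 in the control libraries and 667, 491, 574 and 630.2 in those labelled knockout. The groups overlapped, with a log2 difference of 0.13 (SE 0.11, limma adjusted p = 0.421).

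Of the 6 lysosomal membrane proteins, 3 were called higher and 3 were not called. Laptm5, a protein of blood-derived cells, chromosome 4, 130913125 to 130936141, had 707, 244, 291 and 395 in the control libraries and 1407, 712, 973 and 988 in those labelled knockout. Control replicate 1 was the highest control library but lay just below the lowest library labelled knockout, and the log2 difference was 1.40 (SE 0.31, limma adjusted p = 0.0142). Cd63, a tetraspanin of late endosomes, chromosome 10, 128900989 to 128912822, had 2173, 1865, 2097 and 1966 in the control libraries and 3294, 2685, 2493 and 3281 in those labelled knockout. The groups were separate, and the log2 difference was 0.53 (SE 0.11, limma adjusted p = 0.0107). Lamp2, a coat protein of the lysosomal membrane, had 1752 ± 318 (SD, n = 4) in control libraries and 2538 ± 459.8 in those labelled knockout, with overlapping groups, and the log2 difference was 0.53 (SE 0.16, limma adjusted p = 0.0398). Its call was lost in 7 of 19 alternatives, among them the replicate block (limma adjusted p = 0.0835). Lamp1, the other main coat protein, had 7717, 8070.3, 7347 and 7731 in the control libraries and 6349.9, 7058, 7086 and 6989.9 in those labelled knockout. It was not called (log2 difference -0.17, SE 0.08, limma adjusted p = 0.153). All of its libraries labelled knockout lay below all control libraries, and under quantile normalisation the difference was above 0 (0.12). Scarb2, the receptor that carries glucocerebrosidase to lysosomes, had a log2 difference of -0.22 (SE 0.09, limma adjusted p = 0.0953). Mcoln1, the lysosomal calcium channel, had one of 0.11 (SE 0.13, limma adjusted p = 0.588), so neither was called.

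Neither transcription factor was called. Tfeb, chromosome 17, 47737030 to 47792419, had 1898, 2068, 1349.7 and 1604 in the control libraries and 1466, 1274, 1364 and 1106 in those labelled knockout. The groups overlapped, with a log2 difference of -0.40 (SE 0.14, limma adjusted p = 0.0662). Without control replicate 3 it was called lower (-0.51, limma adjusted p = 0.0211), and so it was with DESeq2 (adjusted p = 0.0414), out of a range of 0.0211 to 0.210. Tfe3, chromosome X, 7762560 to 7775202, had 302, 264, 349 and 296 in the control libraries and 364, 366, 332 and 463 in those labelled knockout. The groups overlapped, with a log2 difference of 0.33 (SE 0.13, limma adjusted p = 0.0929). Its highest value was in knockout replicate 4.

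Genes that share a place or a partner were then compared within each library, as the difference of their log2 values, and tested by exact permutation, two-sided, of the 70 ways to assign 8 libraries, with a smallest possible p of 0.0286 and adjustment over the 5 pairs. Tcirg1 minus Atp6v0a1 was -0.95, -2.26, -1.70 and -1.83 in the control libraries and 0.78, -0.37, -0.17 and 0.29 in those labelled knockout. The values did not overlap, and the shift was 1.82 with a standard error of 0.37 (exact permutation p = 0.0286, adjusted p = 0.0714). Laptm5 minus Lamp1 shifted by 1.57 with a standard error of 0.41, and its values did not overlap (exact permutation p = 0.0286, adjusted p = 0.0714). For Atp6v0d2 minus Atp6v0d1 the shift was 2.66 with a standard error of 1.02 (exact permutation p = 0.0857, adjusted p = 0.0857), for Clcn7 minus Ostm1 0.45 with a standard error of 0.19 (exact permutation p = 0.0571, adjusted p = 0.0857) and for Tfeb minus Tfe3 -0.73 with a standard error of 0.28 (exact permutation p = 0.0857, adjusted p = 0.0857). None of the 5 passed 0.05 after adjustment. With only Tcirg1 and Laptm5 at the smallest possible p, their adjusted p could not fall below 0.0714. Without control replicate 1, the highest control library for Atp6v0d2 minus Atp6v0d1, that pair no longer overlapped either. The shifts of Tcirg1 (2.06), Laptm5 (1.87) and Atp6v0d2 (3.53) then each had an adjusted p of 0.0476 (exact permutation). Which side of 0.05 they fell on was set by how many pairs reached the smallest p.

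**Figure D4:**
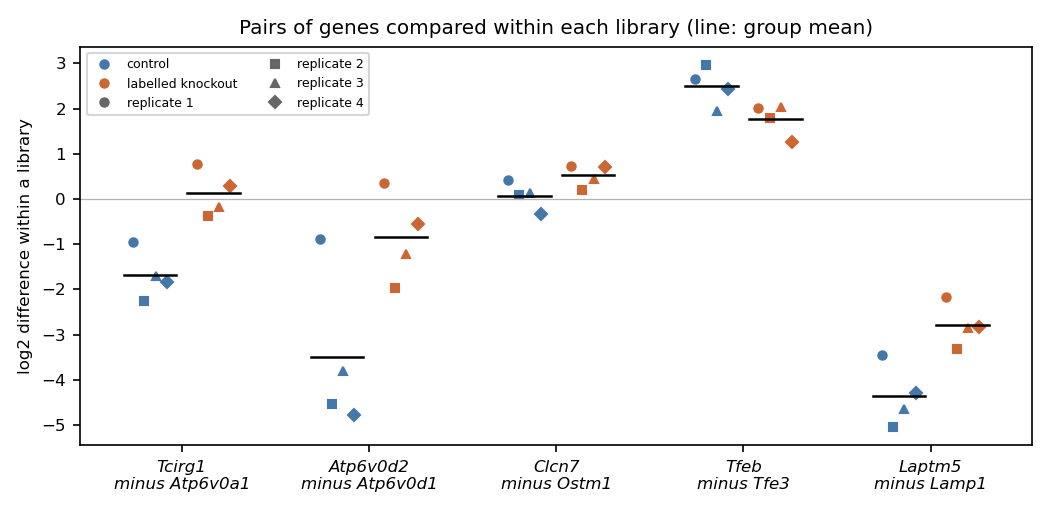
Difference of the log2 values of 2 genes within each library (vertical axis), for 5 pairs, with 1 symbol per replicate and a line at each group mean. For Tcirg1 minus Atp6v0a1 and for Laptm5 minus Lamp1 all libraries labelled knockout lie above all control libraries, and control replicate 1 is the highest control library in both.

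The other genes of the pathway were read from lists set by function. Of 14 tested V-ATPase subunits and assembly factors outside the set, 1 was called higher (7.14%) and 3 lower (21.4%). Over all genes tested 11.6% were called in each direction. Atp6v0d2, the d2 subunit of the osteoclast pump, had 297, 26.2, 46.7 and 20.8 in the control libraries and 785, 182, 298 and 464 in those labelled knockout, and the log2 difference was 2.80 (SE 0.76, limma adjusted p = 0.0268). Control replicate 1 lay above knockout replicate 2, and the call was lost with edgeR (adjusted p = 0.0764), with DESeq2 (0.0745) and when replicate 2 or 4 of the controls, or 1 or 4 of the others, was left out (0.0678 to 0.0757). Atp6v0a2, the a2 subunit, was called lower (log2 difference -0.38, SE 0.09, limma adjusted p = 0.019), and so were Wdr7 (log2 difference -0.40, SE 0.10, limma adjusted p = 0.0212) and Tmem199, a factor of pump assembly (log2 difference -0.54, SE 0.15, limma adjusted p = 0.0283). None of these calls of lower genes was kept under the library-total scaling, which left 1 call in this list, or without control replicate 2 or knockout replicate 4, which left 0.

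Among 28 other genes of lysosomal breakdown, mostly soluble hydrolases and activators, 14 were called higher (50%) and 2 lower (7.14%), with a median log2 difference of 0.43. Among those of smallest p was Gaa, acid alpha-glucosidase, which breaks down glycogen and was lower (log2 difference -0.70, SE 0.09, limma adjusted p = 0.00397). Scpep1, a serine carboxypeptidase, was higher (log2 difference 1.27, SE 0.23, limma adjusted p = 0.00765). So was Glmp, a lysosomal membrane glycoprotein and not a hydrolase (log2 difference 0.55, SE 0.11, limma adjusted p = 0.00977). The count of 16 fell to 6 without control replicate 2, to 9 without control replicate 4, to 8 without knockout replicate 1 and to 5 without knockout replicate 4. Of 23 other lysosomal membrane proteins 4 were called higher (17.4%) and 1 lower (4.35%), shares near the 11.6% in each direction over all genes tested. Those of smallest p were Tpcn2, a lysosomal cation channel (log2 difference 0.96, SE 0.16, limma adjusted p = 0.00581), Cd68, a macrophage glycoprotein (log2 difference 1.71, SE 0.30, limma adjusted p = 0.00687), Slc17a5, the sialic acid exporter (log2 difference 0.72, SE 0.14, limma adjusted p = 0.00965), and Slc29a3, a nucleoside transporter (log2 difference 0.81, SE 0.17, limma adjusted p = 0.0109).

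A list of 10 genes of hydrolase sorting and activation includes, but is not limited to, those of the mannose 6-phosphate tag that delivers hydrolases to lysosomes. Of these 10, 2 were called higher (20%) and 1 lower (10%), shares near the 11.6% in each direction over all genes tested. Sort1, the sorting receptor sortilin, was lower (log2 difference -0.95, SE 0.16, limma adjusted p = 0.00556), and Gnptab, whose enzyme makes the tag, (log2 difference 0.56, SE 0.16, limma adjusted p = 0.0342) and Nagpa, whose enzyme uncovers it, (log2 difference 0.36, SE 0.11, limma adjusted p = 0.0441) were higher. Under quantile normalisation 1 call was left in this list, as when any 1 of control replicates 2, 3 and 4 and knockout replicates 1 and 4 was left out. Of 20 genes of the MiT/TFE family and its mTORC1 regulators, 2 were called higher (10%) and 6 lower (30.0%), against the same 11.6%. The median log2 difference of these 20 was -0.15. Mtor, the kinase (log2 difference -0.51, SE 0.09, limma adjusted p = 0.00581), Tsc1, its inhibitor (log2 difference -0.48, SE 0.08, limma adjusted p = 0.00615), Rragd, a GTPase that brings mTORC1 to the lysosome (log2 difference -0.62, SE 0.12, limma adjusted p = 0.00822), and Rptor, the scaffold of mTORC1 (log2 difference -0.42, SE 0.09, limma adjusted p = 0.0103), were the lower genes of smallest p. The count of 8 fell to 4 under quantile normalisation, and to 4 without control replicate 2 or knockout replicate 2 or 4, and was 5 with the replicate block. The skeletal muscle markers lay lower in the same libraries, 15 of 15 below 0 and 7 called (13 with DESeq2, 12 with edgeR or with the filter at 50, 4 with the replicate block), and their part in these falls was not tested.

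The members did not all follow the same order of libraries. Of the 18 called higher, control replicate 1 was the highest control library in 12 (among them Tcirg1, Laptm5, Glb1, Hexa and Atp6v1a) and control replicate 3 in the other 6 (Asah1, Lamp2, Lgmn, Lipa, Manba and Npc2). Control replicate 2 was the lowest control library in 14 of the 18. Among the libraries labelled knockout, replicate 1 was highest in 9, replicate 4 in 8 and replicate 2 in 1, Lamp2.

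**Figure D5:**
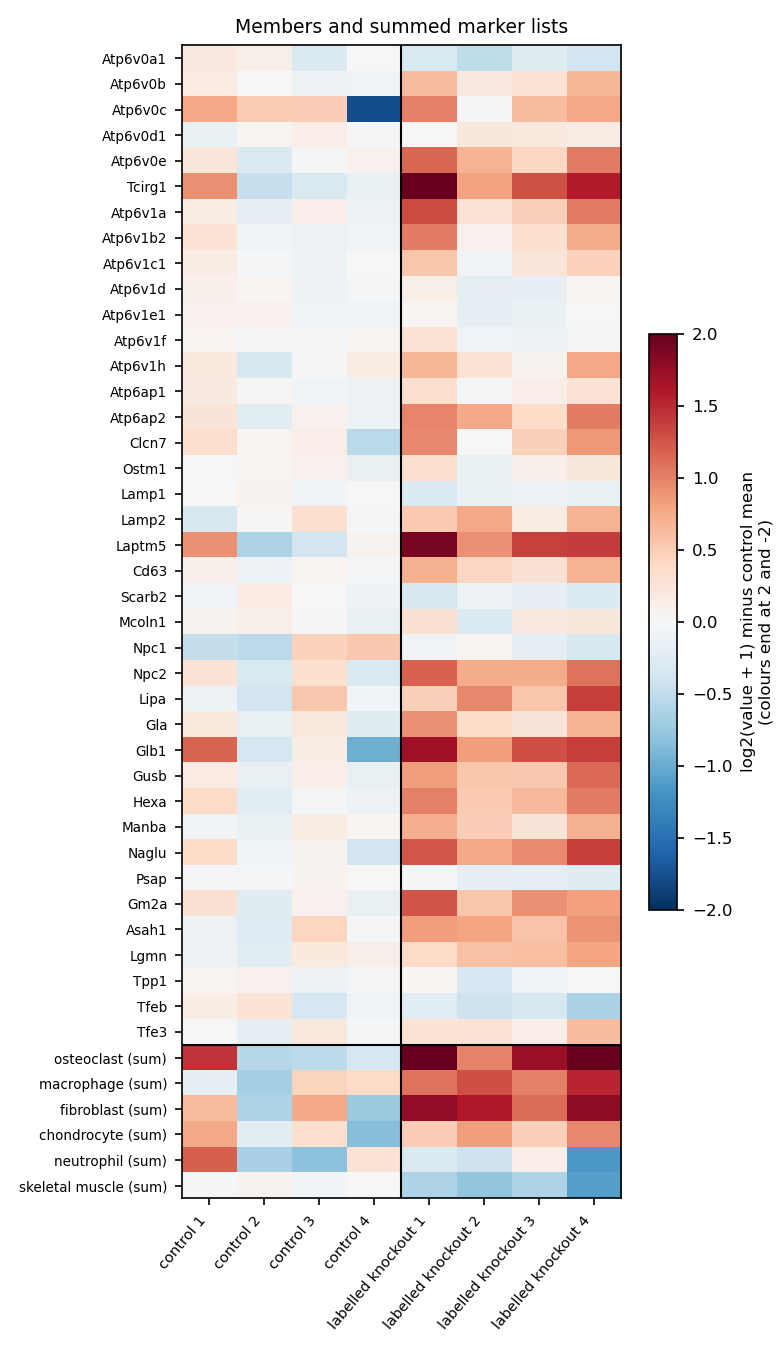
Each library's log2 value minus the control mean, for the 39 members (rows, by role) and, under the line, the summed level of 6 marker lists, with colours that end at 2 and -2. Control replicate 1 stands out in Tcirg1, Laptm5 and Glb1 and in the osteoclast sum, replicate 1 of the libraries labelled knockout is highest in 9 and replicate 4 in 8 of the 18 members called higher, and the skeletal muscle sum is below the control mean in all 4 libraries labelled knockout.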

How the data were processed

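Poly-A RNA of 8 mouse knee joints was sequenced, and the labels gave 4 control and 4 knockout libraries. The deposited values are a signal per gene, read counts divided by DESeq2 size factors by the authors, after alignment to mm10 with HISAT2 and counting with featureCounts, per the submitters' processing notes and the series design; aligner versions and the strand setting are not given in the sources used here. In all 8 columns 100% of values were whole multiples of 1 step (within 0.1 read), and the reciprocals of these steps equalled recomputed size factors. For control replicate 2 and knockout replicate 1 the step lies close to 1, so it is less separable from plain rounding there. Recovered depth was 13991000 to 17411617 reads per library. The 12 pairs of libraries within groups differed beyond counting noise (chi-square per degree of freedom 25.8 to 66.1).

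Genes at 10 or more in no fewer than 4 libraries (14949 of 20681) were tested on log2(value + 1) with limma 3.58.1 (R 4.3.3), with Benjamini-Hochberg adjustment over all of them and a threshold of 0.05. A fold change is on that scale and understates the change of low genes. Alternatives were other pseudocounts, filters and scalings, a replicate block, edgeR 4.0.16 and DESeq2 1.42.0 on the recovered reads, and each library left out. The script was tested on simulated data. The members and lists were chosen with earlier results of these data known. All 39 members are accounted for. Members called with groups that do not overlap, up to 14 by smallest p, and Tcirg1, Atp6v0a1, Clcn7, Ostm1, Tfeb and Tfe3 are given by library, as are up to 4 called genes of each related list by smallest p as differences and the 3 most abundant markers of each list. The values of 1 gene that this rule names are not reported here. Coordinates are from GENCODE M21 (GRCm38). Of the members, 12 overlap another annotated gene, 10 of them on the opposite strand, and reads of such pairs cannot be told apart without a stated strand.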

Additional observations from a re-analysis of the deposited data

Results flagged for a closer look

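In 5 of 82 groups of 4 values, 1 library lay far from the other libraries of its group by Dixon's criterion. Chance gives about 1 in 20 such groups. Control replicate 1 stood apart for Tcirg1 (974, others 378 to 469), for Atp6v1b2 (1475, others 1128 to 1164) and for Atp6v0d2 (297, others 20.8 to 46.7). Knockout replicate 1 was low for Lamp1 (6349.9, others 6989.9 to 7086). Control replicate 3 was high for Loxl2 (1135, others 282 to 349).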

How the results depend on the processing

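Over 19 alternatives, 12 of the 18 members called higher kept the call in each, and 668 of 741 member values kept direction and side of the threshold, while 43 became weaker, 18 stronger and 12 reversed; the causes were not tested. The count called higher was 21 with DESeq2, 17 with edgeR and quantile normalisation, 24 with library-total scaling, and 12 to 19 with a library left out. The count called lower was 2 with DESeq2, 0 without the filter, with quantile normalisation and with library-total scaling, and 0 to 2 with a library left out. The replicate numbers did not pair the libraries (same-number correlations 0.21, -0.12, -0.23 and -0.06); with a replicate block 16 members were called higher and 0 lower, and over all genes 1117 higher and 901 lower against 1732 and 1729. The MiT/TFE count of 8 became 4 with quantile normalisation, 5 with the block and 4 to 9 with a library left out. The hydrolase sorting and activation count of 3 became 1 with quantile normalisation and 1 to 4 with a library left out. The other V-ATPase count of 4 became 1 with library-total scaling, 1 with the block and 0 to 5 with a library left out. The other membrane count of 5 became 9 with DESeq2, and the other hydrolase count of 16 became 5 to 16 with a library left out. Without 1 library, Tcirg1 minus Atp6v0a1 ran from 1.60 to 2.06, Laptm5 minus Lamp1 from 1.34 to 1.87, Atp6v0d2 minus Atp6v0d1 from 2.23 to 3.53 and Tfeb minus Tfe3 from -0.91 to -0.55. Members not called reversed for Atp6v1d (0.10 with library-total scaling, 0.068 with quantile normalisation), Atp6v1e1 (0.078, 0.081), Tpp1 (0.053, 0.035), Lamp1 (0.12, quantile), Psap (0.22, quantile), Npc1 (0.0069 with library-total scaling, -0.32 to 0.036 with a library left out, above 0 without control replicate 3 or 4) and Atp6v1f (-0.046 to 0.081, below 0 without knockout replicate 1).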
